A study of Drosophila melanogaster with 8 samples.

Results

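Delta (Dl), neuralized (neur), kuzbanian (kuz), Presenilin (Psn), mastermind (mam), Hairless (H) and groucho (gro) are core genes of the Notch receptor pathway that lie outside the Enhancer of split cluster. They were chosen by name, as every probe set annotated to 1 of these symbols, and came to 7 of the 11982 genes and 10 of the 18769 probe sets measured. RNA had been profiled on 8 Affymetrix arrays of Kc cells, a female *Drosophila melanogaster* line that lacks the MSL complex of male dosage compensation. Cells received double-stranded RNA against Sxl (Sxl RNAi, 3 arrays), against both Sxl and Msl2 (Sxl and Msl2 RNAi, 2 arrays), or against GFP, a sequence these cells do not carry (GFP RNAi, 3 arrays). SXL keeps MSL2 from being made in females, so the comparisons ask what Sxl RNAi changed and whether the change was also seen when Msl2 was targeted together with Sxl. The labels name a GFP array as the background control of every knockdown array, which gives 3 control sets. Set 1 held Sxl RNAi replicate 2, Sxl and Msl2 RNAi replicate 1 and GFP RNAi replicate 1, set 2 held Sxl RNAi replicate 1 and GFP RNAi replicate 2, and set 3 held Sxl RNAi replicate 3, Sxl and Msl2 RNAi replicate 2 and GFP RNAi replicate 3. Separate cultures are not named in the labels, and the spread behind the p-values is that between these arrays and may be technical.

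Notch is a receptor that is cut after it binds a ligand on a neighboring cell, and the piece freed inside the cell enters the nucleus and switches on genes with the DNA-binding protein Su(H). Dl is the ligand and neur encodes a ubiquitin ligase that sends Dl into endocytosis, while kuz encodes the metalloprotease that makes the outer cut and Psn the catalytic subunit of the gamma-secretase that makes the cut within the membrane. In the nucleus mam encodes the coactivator that joins Notch and Su(H), and H and gro act on the side of repression, H as the protein that links Su(H) to corepressors and gro as a corepressor. In flies the pathway is known for choosing cell fates, among them crystal cells of the blood, and Kc cells are regarded as a hemocyte-like line.

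All values are log2 probe set summaries made with RMA, in which a difference of 1 is a doubling. Array medians lay between 4.40 and 4.46. The median of the probe set means, 4.42, served as a limit below which expression was not shown. Of the targeted genes, msl-2 had values of 6.19, 5.33 and 5.61 in Sxl RNAi, 4.16 and 4.13 in Sxl and Msl2 RNAi, and 4.32, 4.47 and 4.51 in GFP RNAi. The Sxl probe set of highest mean was at 6.64, 6.09 and 6.93 in Sxl RNAi, 6.65 and 7.37 in Sxl and Msl2 RNAi, and 7.20, 7.01 and 6.99 in GFP RNAi, so by this probe set the library labelled Sxl and Msl2 RNAi replicate 2 was above the controls. By another Sxl probe set the same library was at 6.41, below the 6.73, 6.87 and 6.91 of GFP RNAi. All 12 hemocyte markers measured were above the limit, among them the GATA factor srp with a mean of 10.56 and hemolectin (Hml) with 11.24. So were 7225 of all 11982 genes, and 5 of 5 lamellocyte, 4 of 4 epithelium and 4 of 5 neuron markers. Fat body had 2 of 5 and muscle 1 of 3 above it, so this count alone does not set hemocytes apart. Of 4 crystal cell markers 2 were above it, PPO2 at 5.68 and PPO1 at 4.48, whereas the crystal cell factor lz was at 3.38 and peb at 3.89. The pair of arrays in set 2 stood apart from the rest, with a correlation of 0.996 between them and of 0.985 to 0.989 to arrays of the other sets.

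None of the 7 genes passed the threshold in any of the 3 comparisons between treatments. The threshold was an adjusted p of 0.05 from limma, and for a gene with more than 1 probe set the probe set of highest mean stood for it. In Sxl RNAi against GFP RNAi 0 of 7 genes were called, where 8.79% of all genes were, and 2 genes (neur and Psn) had an unadjusted limma p under 0.05, where 21.8% of all genes did. In Sxl and Msl2 RNAi against GFP RNAi 0 of 7 were called beside 3.12% of all genes, and 2 (Psn and gro) had an unadjusted limma p under 0.05 beside 17.0%. Sxl RNAi against Sxl and Msl2 RNAi gave 0 of 7 called beside 0.626% of all genes, with 0 of 7 under an unadjusted limma p of 0.05 beside 10.5%. The median log2 fold change of the 7 genes was -0.05, -0.03 and -0.03 in these comparisons, against -0.01, 0.00 and -0.01 over all genes. The 95% intervals of all 10 probe sets lay within 0.735-fold and 1.56-fold in Sxl RNAi against GFP RNAi. They lay within 0.706-fold and 1.50-fold in Sxl and Msl2 RNAi against GFP RNAi, and within 0.733-fold and 1.41-fold between the knockdowns. The 2 comparisons with GFP RNAi share the GFP arrays.

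**Figure D1:**
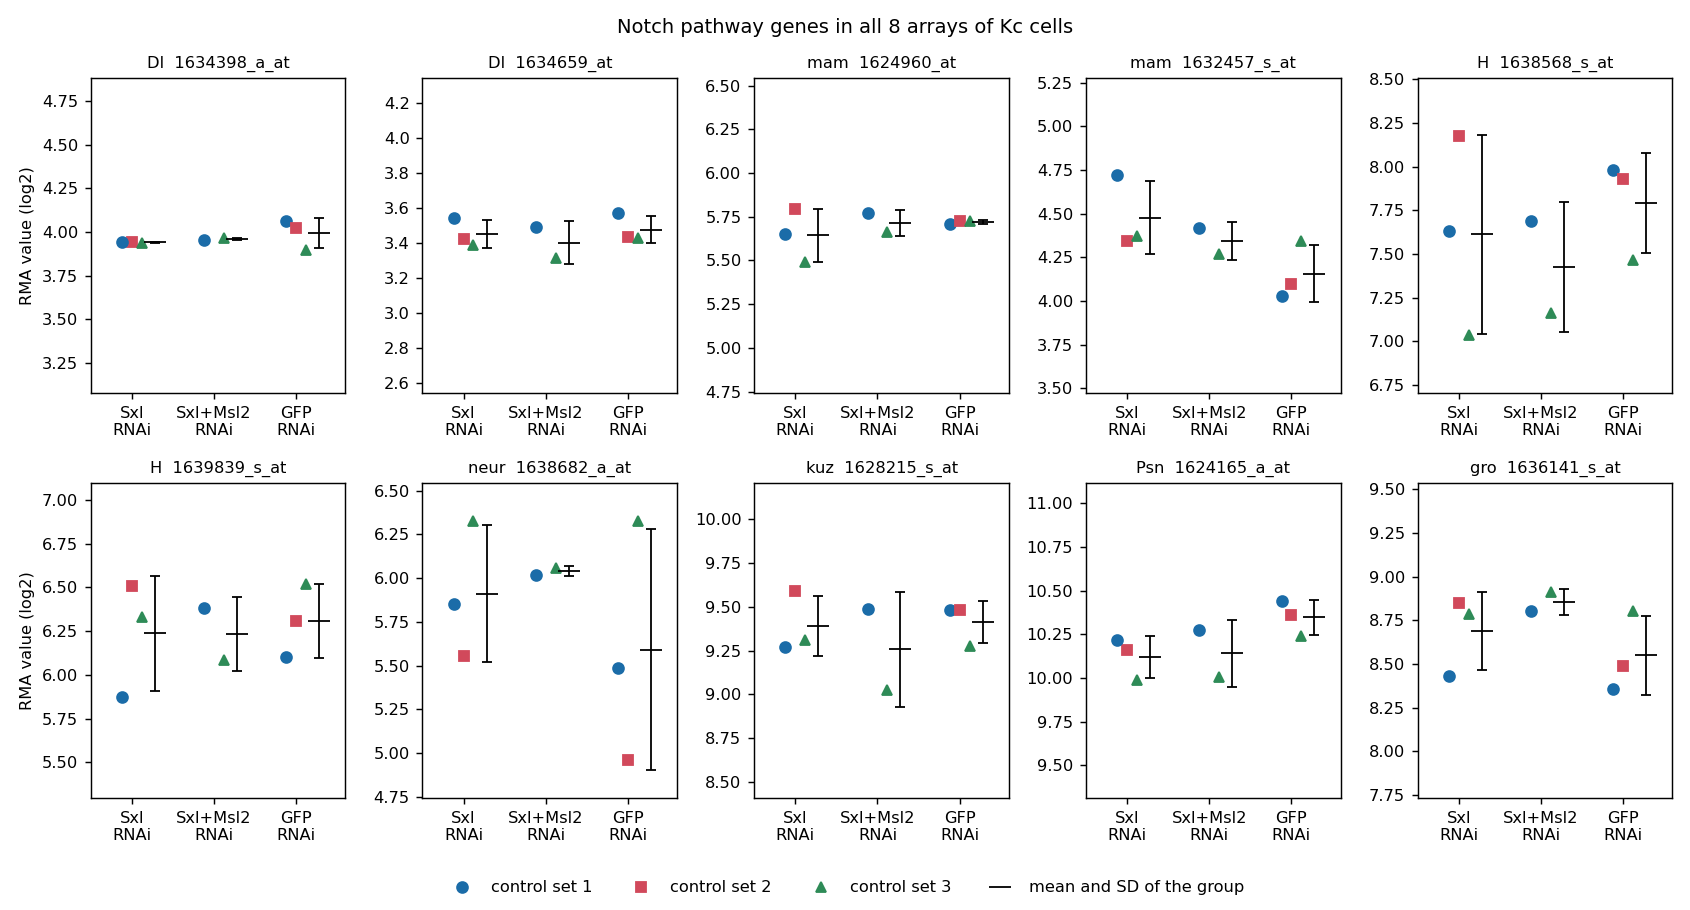
RMA values (log2) of the 10 probe sets in the 8 arrays, by treatment, with control sets as colors and shapes and the mean and SD of each treatment as black bars. Every panel spans the same height; Psn is lower in each Sxl RNAi array than in any GFP array, and neur and H spread most within Sxl RNAi and within GFP RNAi, whereas the neur arrays of Sxl and Msl2 RNAi lie close together.

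The ligand gene Dl was below the limit by both of its probe sets. Its probe set of highest mean (1634398_a_at, chromosome 3R) had values of 3.94, 3.94 and 3.94 in Sxl RNAi, 3.95 and 3.97 in Sxl and Msl2 RNAi, and 4.06, 4.03 and 3.90 in GFP RNAi. All 8 arrays were below the limit, and the GFP arrays spanned those of both knockdowns. Fitted log2 fold changes were -0.05 ± 0.07 (SE, adjusted p = 0.799) in Sxl RNAi and -0.03 ± 0.08 (adjusted p = 0.937) in Sxl and Msl2 RNAi, both against GFP RNAi. The other Dl probe set, 1634659_at, was lower still, between 3.31 and 3.57 in all arrays. Neither probe set showed Dl expression by this limit, and detection above background was not tested.

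The neur gene varied more between arrays than any other of the 7, with an SD of 0.47 over the 8 arrays. Probe set 1638682_a_at (3R) had values of 5.55, 5.85 and 6.33 in Sxl RNAi, 6.02 and 6.06 in Sxl and Msl2 RNAi, and 5.49, 4.96 and 6.33 in GFP RNAi. GFP RNAi replicate 3 was as high as the highest Sxl RNAi array, and GFP RNAi replicate 2 was the lowest array of all, so the treatments overlapped. Within control sets 1, 2 and 3 the Sxl RNAi array differed from its GFP array by 0.37, 0.60 and 0.00. The fit gave 0.32 ± 0.14 on the log2 scale for Sxl RNAi against GFP RNAi, which is 1.25-fold with a 95% interval from 1.00 to 1.56 (adjusted p = 0.266). GFP RNAi replicate 3 decided this call, since without it the log2 fold change was 0.53 and the adjusted p was 0.0317. The difference of Sxl and Msl2 RNAi from the GFP array was 0.53 in set 1 and -0.27 in set 3, with a fit of 0.20 ± 0.16 (adjusted p = 0.661). The Sxl RNAi against Sxl and Msl2 RNAi difference was 0.12 ± 0.16 (adjusted p = 0.879).

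Both genes for the cuts of the receptor were well above the limit. The metalloprotease gene kuz (1628215_s_at, 2L) had values of 9.59, 9.27 and 9.31 in Sxl RNAi, 9.49 and 9.02 in Sxl and Msl2 RNAi, and 9.48, 9.48 and 9.28 in GFP RNAi. Highest and lowest arrays both came from knockdowns, and the 3 groups overlapped. Log2 fold changes were -0.02 ± 0.10 (adjusted p = 0.946) in Sxl RNAi and -0.09 ± 0.12 (adjusted p = 0.803) in Sxl and Msl2 RNAi, with folds of 0.984 (95% interval from 0.844 to 1.15) and 0.939 (from 0.784 to 1.12).

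Presenilin was the member nearest to the threshold. Its probe set 1624165_a_at (3L) had values of 10.16, 10.22 and 9.99 in Sxl RNAi, 10.27 and 10.01 in Sxl and Msl2 RNAi, and 10.44, 10.36 and 10.24 in GFP RNAi. Every Sxl RNAi array was below every GFP array, though the highest of the Sxl RNAi arrays (10.22) and the lowest of the GFP arrays (10.24) nearly touched. Psn was the only 1 of the 7 genes whose Sxl RNAi and GFP arrays did not overlap, where 12.8% of all genes had groups that did not overlap. Within sets 1, 2 and 3 it differed by -0.22, -0.20 and -0.25 between Sxl RNAi and GFP RNAi, lower in 3 of 3 pairs. The fit gave -0.23 ± 0.07, or 0.856-fold (95% interval from 0.772 to 0.948), with an unadjusted limma p of 0.00744 and an adjusted p of 0.0824. Sxl and Msl2 RNAi arrays were lower than their GFP arrays by a similar amount, with differences of -0.17 in set 1 and -0.23 in set 3 and a fit of -0.19 ± 0.08 (adjusted p = 0.283). Between the knockdowns Psn differed by -0.03 ± 0.08 (Sxl RNAi minus Sxl and Msl2 RNAi, adjusted p = 0.938), a fold between 0.867 and 1.10 at 95%. The adjusted p in Sxl RNAi ran between 0.0193 and 0.688 over 17 alternatives with a log2 fold change between -0.24 and -0.19; it passed the threshold when only probe sets above the limit were tested (adjusted p = 0.0447) and with an intensity-dependent robust prior (adjusted p = 0.0193).

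The coactivator gene mam was measured by a pair of probe sets that did not follow each other (Pearson r = -0.19 over 8 arrays). The higher of them, 1624960_at (2R), had values of 5.79, 5.65 and 5.49 in Sxl RNAi, 5.77 and 5.66 in Sxl and Msl2 RNAi, and 5.71, 5.72 and 5.73 in GFP RNAi. GFP arrays lay close together inside the range of the Sxl RNAi arrays, with fits of -0.08 ± 0.08 (adjusted p = 0.716) in Sxl RNAi and 0.04 ± 0.09 (adjusted p = 0.919) in Sxl and Msl2 RNAi. The lower, 1632457_s_at, had values of 4.34, 4.72 and 4.37 in Sxl RNAi, 4.42 and 4.27 in Sxl and Msl2 RNAi, and 4.03, 4.10 and 4.34 in GFP RNAi. It was higher in all 3 Sxl RNAi pairs, by 0.69, 0.24 and 0.03 in sets 1, 2 and 3, but its mean of 4.32 was under the limit and its fit of 0.32 ± 0.11 did not pass (adjusted p = 0.151).

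Hairless also had a pair of probe sets with little in common over the arrays (r = 0.154). The higher, 1638568_s_at (3R), had values of 8.17, 7.63 and 7.04 in Sxl RNAi, 7.69 and 7.17 in Sxl and Msl2 RNAi, and 7.98, 7.93 and 7.47 in GFP RNAi. Each treatment held high and low arrays, and the highest and the lowest array of all were both Sxl RNAi. Sxl RNAi arrays differed from their GFP arrays by -0.35, 0.24 and -0.43 in sets 1, 2 and 3, so set 2 ran the other way. The fit over all arrays was -0.18 ± 0.12 (adjusted p = 0.511), whereas without control set 2 it was -0.39 (adjusted p = 0.0326). Leaving out only Sxl RNAi replicate 1 or only GFP RNAi replicate 2 is the same fit, since a set of 1 array adds nothing to the comparison. In Sxl and Msl2 RNAi, which has no array in set 2, the differences were -0.29 and -0.30, with a fit of -0.19 ± 0.14 (adjusted p = 0.613). This fit also draws on set 2, and without control set 2 it was -0.30 (adjusted p = 0.116). The lower probe set, 1639839_s_at, had values of 6.51, 5.87 and 6.33 in Sxl RNAi, 6.38 and 6.08 in Sxl and Msl2 RNAi, and 6.10, 6.31 and 6.52 in GFP RNAi. These groups overlapped too, and its fit was -0.07 ± 0.15 (adjusted p = 0.879) in Sxl RNAi.

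The corepressor gene gro (1636141_s_at, 3R) had values of 8.85, 8.43 and 8.79 in Sxl RNAi, 8.80 and 8.91 in Sxl and Msl2 RNAi, and 8.36, 8.49 and 8.80 in GFP RNAi. Both arrays of Sxl and Msl2 RNAi were at the upper end, but GFP RNAi replicate 3 reached the lower of them. Sxl and Msl2 RNAi exceeded the GFP array by 0.44 in set 1 and 0.11 in set 3, and the fit was 0.33 ± 0.11, or 1.26-fold (95% interval from 1.06 to 1.50), with an adjusted p of 0.193. In Sxl RNAi the fit was 0.14 ± 0.10 (adjusted p = 0.525). Sxl RNAi against Sxl and Msl2 RNAi gave -0.19 ± 0.11 (adjusted p = 0.654), which is the farthest from 0 among the 7 genes in that comparison.

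**Figure D2:**
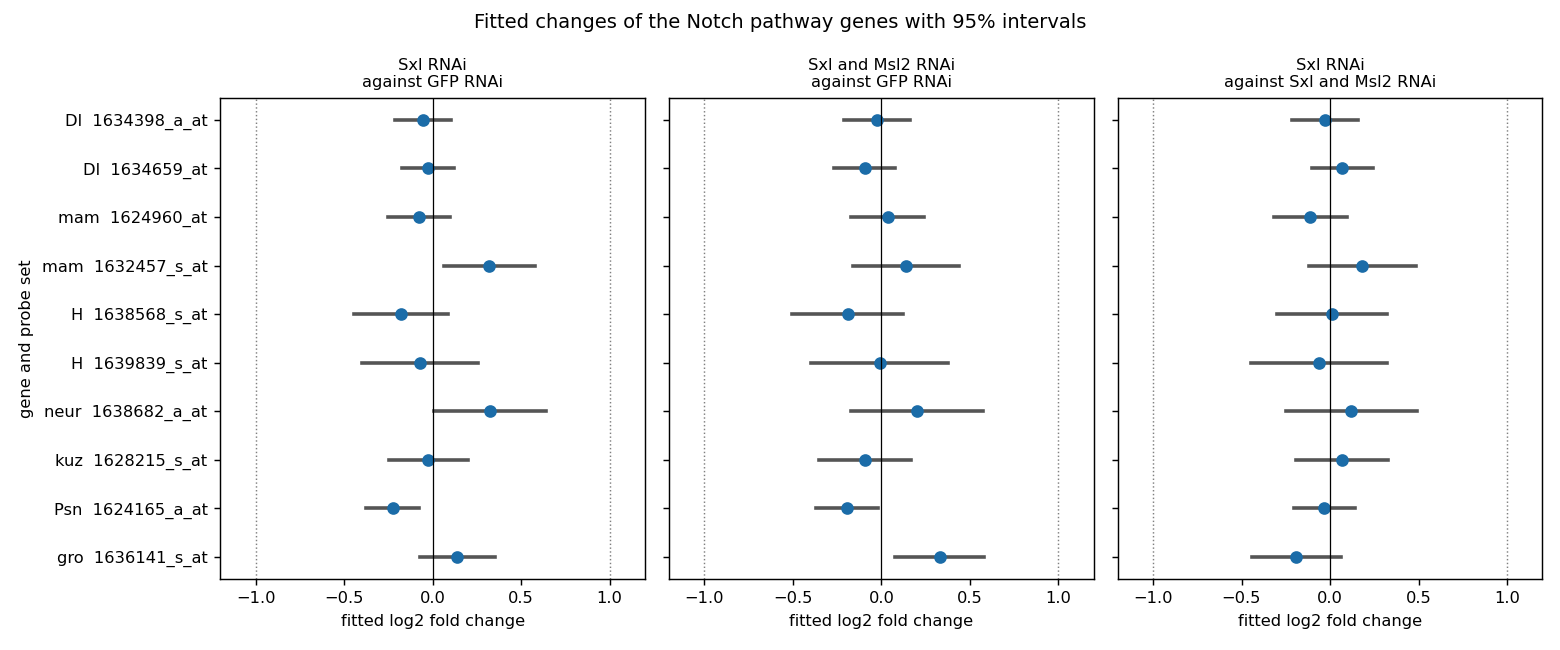
Fitted log2 fold changes (points) with 95% intervals (lines) of the 10 probe sets in the 3 comparisons; dotted lines mark a doubling and a halving. All intervals stay inside the dotted lines, and that of Psn lies below 0 in both comparisons with GFP RNAi.

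In Sxl and Msl2 RNAi against GFP RNAi 0 of 7 genes had groups that did not overlap, where 24.3% of all genes did. Between the knockdowns it was 1 of 7, beside 18.1% of all genes, and that gene was Dl, whose groups lay about 0.01 apart at values under the limit. None of the 7 genes lies on the X chromosome, where the median change of expressed genes in Sxl RNAi against GFP RNAi was 0.18 (1271 genes), against -0.04 on autosomes (5927 genes).

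The level of neur and H differed among the control sets. A moderated F test of any difference among the 3 sets called 2 of 7 genes, H (adjusted p = 0.00518) and neur (adjusted p = 0.00677), where 25.1% of all genes were called, a share near that of the 7. H averaged 7.77 in set 1, 8.05 in set 2 and 7.22 in set 3, and neur averaged 5.79, 5.26 and 6.24. The arrays of set 3 were below all others for H and above all others for neur, while sets 1 and 2 overlapped for both genes. With treatment in the model, set 3 minus set 2 was -0.80 ± 0.14 for H and 0.97 ± 0.16 for neur on the log2 scale, against 0.25 ± 0.14 and -0.52 ± 0.16 for set 2 minus set 1. Among the other genes the adjusted p was 0.0759 for Psn, 0.108 for gro, 0.166 for kuz, 0.485 for mam and 0.848 for Dl. Of the alternatives in which sets could be compared, neur passed in 13 of 13, H in 12 of 13 and Psn in 3 of 13. When the probe sets of a gene were averaged, the adjusted p of H was 0.0833, and the lowest adjusted p of Psn was 0.0171, with an intensity-dependent robust prior. The lower H probe set did not show the pattern of the higher (adjusted p = 0.446). Hemocyte markers also differed among sets, 11 of 12 past the threshold, and their summed level on the log2 scale was 12.68 to 13.03 in set 1, 13.30 to 13.31 in set 2 and 12.95 to 13.12 in set 3. The sum hides markers that went opposite ways. He was at 10.39 and 10.56 in set 2 and between 6.08 and 8.04 elsewhere, and Col4a1 was at 6.75 and 5.70 in set 2 and between 9.67 and 10.10 elsewhere. By treatment the sum was 12.68 to 13.30 in Sxl RNAi, 12.92 to 12.95 in Sxl and Msl2 RNAi and 13.03 to 13.31 in GFP RNAi. In Sxl RNAi against GFP RNAi 4 of these 12 markers passed, Pxn higher and He, Ppn and Glt lower. Of all genes 8.79% passed in that comparison, and of genes above the limit 14.4%. Their part in the levels of H and neur was not tested, and a set is known here only as arrays that share a control.

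**Figure D3:**
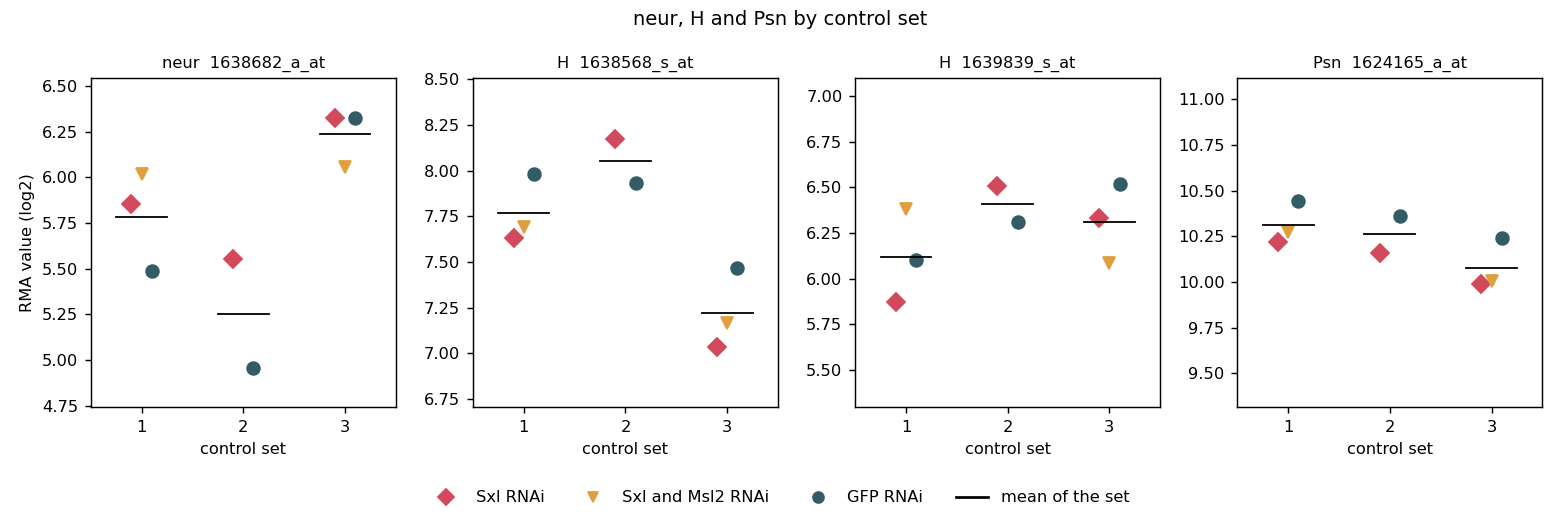
RMA values (log2) of neur, both H probe sets and Psn by control set, with treatments as colors and shapes and the mean of each set as a line; panels span the same height. Set 3 is highest for neur and lowest for the H probe set 1638568_s_at, and within every set Psn is lower in Sxl RNAi than in GFP RNAi.

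Over the 8 arrays neur and the H probe set 1638568_s_at ran in opposite directions (r = -0.77), and this probe set went with kuz (r = 0.817). These were the strongest correlations of each sign between member genes. Other pairs were nearly as strong. H went with mam (r = 0.769) and Psn (r = 0.738). Opposite directions were also seen for neur and Dl (r = -0.752) and for Psn and gro (r = -0.731). The other H probe set, with r = 0.154 to 1638568_s_at, was not used in these correlations. These correlations rest on 8 arrays that share sets and treatments. The mean of each control set was not taken out of them, so they include the differences of H and neur among sets. Among 7224 other genes above the limit, those whose pattern was most like that of neur were CG9328 on 2L (r = 0.963), the prohibitin gene Phb2 on 2R (r = 0.961) and the DNA glycosylase gene Tdg on chromosome 4 (r = 0.961). In all 100 genes had r above 0.9. With the mean of each control set taken out, r was 0.916 for CG9328, 0.884 for Phb2 and 0.889 for Tdg. These genes were picked for their high r in the same 8 arrays, so the values are not a separate check.

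The wider pathway was looked at through lists by role, of which 43 of 52 genes were measured and 30 were above the limit. N, Su(H), Ser, mib1, nct, aph-1, Fur1 and 2 genes of the Enhancer of split cluster were not analysed here. In Sxl RNAi against GFP RNAi 6 of 43 rose and 2 fell, where 5.27% of all genes rose and 3.52% fell. In Sxl and Msl2 RNAi against GFP RNAi 0 of 43 rose and 1 fell, where 1.76% of all genes rose and 1.36% fell. Between the knockdowns 0 passed by limma, where 0.626% of all genes did. The 3 comparisons had 15, 12 and 8 of the 43 at an unadjusted limma p under 0.05, beside 21.8%, 17% and 10.5% of all genes. The median log2 fold change of the 43 was 0.03, 0.03 and 0.01, against -0.01, 0.00 and -0.01 over all genes.

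On the ligand side 0 of 4 genes passed in any comparison, and AP-2alpha, an adaptor subunit of endocytosis and the most highly expressed of them, differed by -0.06 (adjusted p = 0.761) in Sxl RNAi. Among the receptor's sugar-adding enzymes 1 of 3 passed: rumi, which adds glucose to Notch, fell by 0.33 in Sxl RNAi (adjusted p = 0.0252). It had values of 9.21, 9.35 and 9.23 in Sxl RNAi, 9.46 and 9.15 in Sxl and Msl2 RNAi, and 9.74, 9.54 and 9.49 in GFP RNAi, below all GFP arrays in both knockdowns. The fit was -0.32 (adjusted p = 0.0905) in Sxl and Msl2 RNAi. Of the cleavage genes beside kuz and Psn, 1 of 4 passed, the X-linked furin protease gene Fur2, which rose by 0.39 in Sxl RNAi (adjusted p = 0.0100) and measured 0.03 (adjusted p = 0.911) in Sxl and Msl2 RNAi.

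Receptor sorting had 1 of 8 genes lower in Sxl RNAi and 1 lower in Sxl and Msl2 RNAi, both of them ubiquitin ligase genes that act on Notch traffic. Nedd4 fell by 0.61 in Sxl RNAi (adjusted p = 0.0146), with -0.40 (adjusted p = 0.193) in Sxl and Msl2 RNAi. Its other probe set, with a mean of 3.66 and so under the limit, gave 0.01 (adjusted p = 0.977) in Sxl RNAi. Su(dx) fell by 0.48 in Sxl and Msl2 RNAi (adjusted p = 0.0453), and in Sxl RNAi its fit was -0.19 (adjusted p = 0.307).

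Of the nuclear cofactors other than mam, H and gro, 1 of 8 passed in Sxl RNAi, the X-linked histone acetyltransferase gene nej, which rose by 0.29 (adjusted p = 0.0430). In Sxl and Msl2 RNAi it measured 0.09 (adjusted p = 0.728), and its other probe set gave 0.02 (adjusted p = 0.951) in Sxl RNAi. The test of Sxl RNAi against Sxl and Msl2 RNAi did not pass for Fur2 (0.36, adjusted p = 0.125) or nej (0.20, adjusted p = 0.477).

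Downstream of the receptor, 4 of 10 Enhancer of split genes rose in Sxl RNAi and 0 fell. Over all genes 5.27% rose and 3.52% fell, and of 6 other targets 0 passed. Of the 10 Enhancer of split genes 5 were above the limit. E(spl)m7-HLH rose by 0.35 (adjusted p = 0.0343) with a mean of 4.43, close to the limit. E(spl)m3-HLH rose by 1.55 (adjusted p = 0.0203), E(spl)mbeta-HLH by 1.18 (adjusted p = 0.0239) and E(spl)m2-BFM by 0.47 (adjusted p = 0.0286), with 1.50, 0.88 and 0.37 in Sxl and Msl2 RNAi, where none passed (adjusted p = 0.0746, 0.189 and 0.191). The rises of E(spl)m3-HLH, E(spl)mbeta-HLH and E(spl)m2-BFM were smaller in set 2, the set that stood apart. E(spl)m3-HLH measured 3.85 in Sxl RNAi and 3.64 in GFP RNAi there, against 6.72 and 7.13 in Sxl RNAi and 4.47 and 4.95 in GFP RNAi in sets 1 and 3. E(spl)mbeta-HLH measured 5.66 in Sxl RNAi and 5.45 in GFP RNAi in set 2, against 8.31 and 8.01 in Sxl RNAi and 6.78 and 6.20 in GFP RNAi in sets 1 and 3. Without control set 2 the fits in Sxl RNAi were 2.22 for E(spl)m3-HLH and 1.67 for E(spl)mbeta-HLH. Sxl and Msl2 RNAi has no array in set 2, but its fits also draw on that set. In sets 1 and 3 its arrays measured 6.35 and 6.74 for E(spl)m3-HLH, against 4.47 and 4.95 in GFP RNAi. For E(spl)m2-BFM they measured 5.12 and 5.35, against 4.67 and 4.89. The fits of 1.50 and 0.37 are smaller than either difference. For E(spl)mbeta-HLH they measured 7.57 and 7.67, and the fit of 0.88 lies between the differences. The target of highest mean outside the cluster, the bHLH repressor gene h, differed by 0.04 (adjusted p = 0.898) in Sxl RNAi. All calls named here from the wider lists were lost on leaving out 1 array or another. Fur2, Nedd4, E(spl)m2-BFM, E(spl)m3-HLH and E(spl)mbeta-HLH were lost without Sxl RNAi replicate 2 or 3 or GFP RNAi replicate 1 or 3. Calls of rumi and E(spl)m7-HLH were lost on leaving out any 1 array of these 2 treatments. That of nej was lost on leaving out any 1 of the 8 arrays. Su(dx) was lost without Sxl RNAi replicate 2, either Sxl and Msl2 RNAi replicate or GFP RNAi replicate 1 or 3. E(spl)m3-HLH and E(spl)mbeta-HLH also lost their calls with an intensity-dependent robust prior (adjusted p = 0.241 and 0.206), and Nedd4 and nej with the mean of their probe sets (adjusted p = 0.0904 and 0.260).

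**Figure D4:**
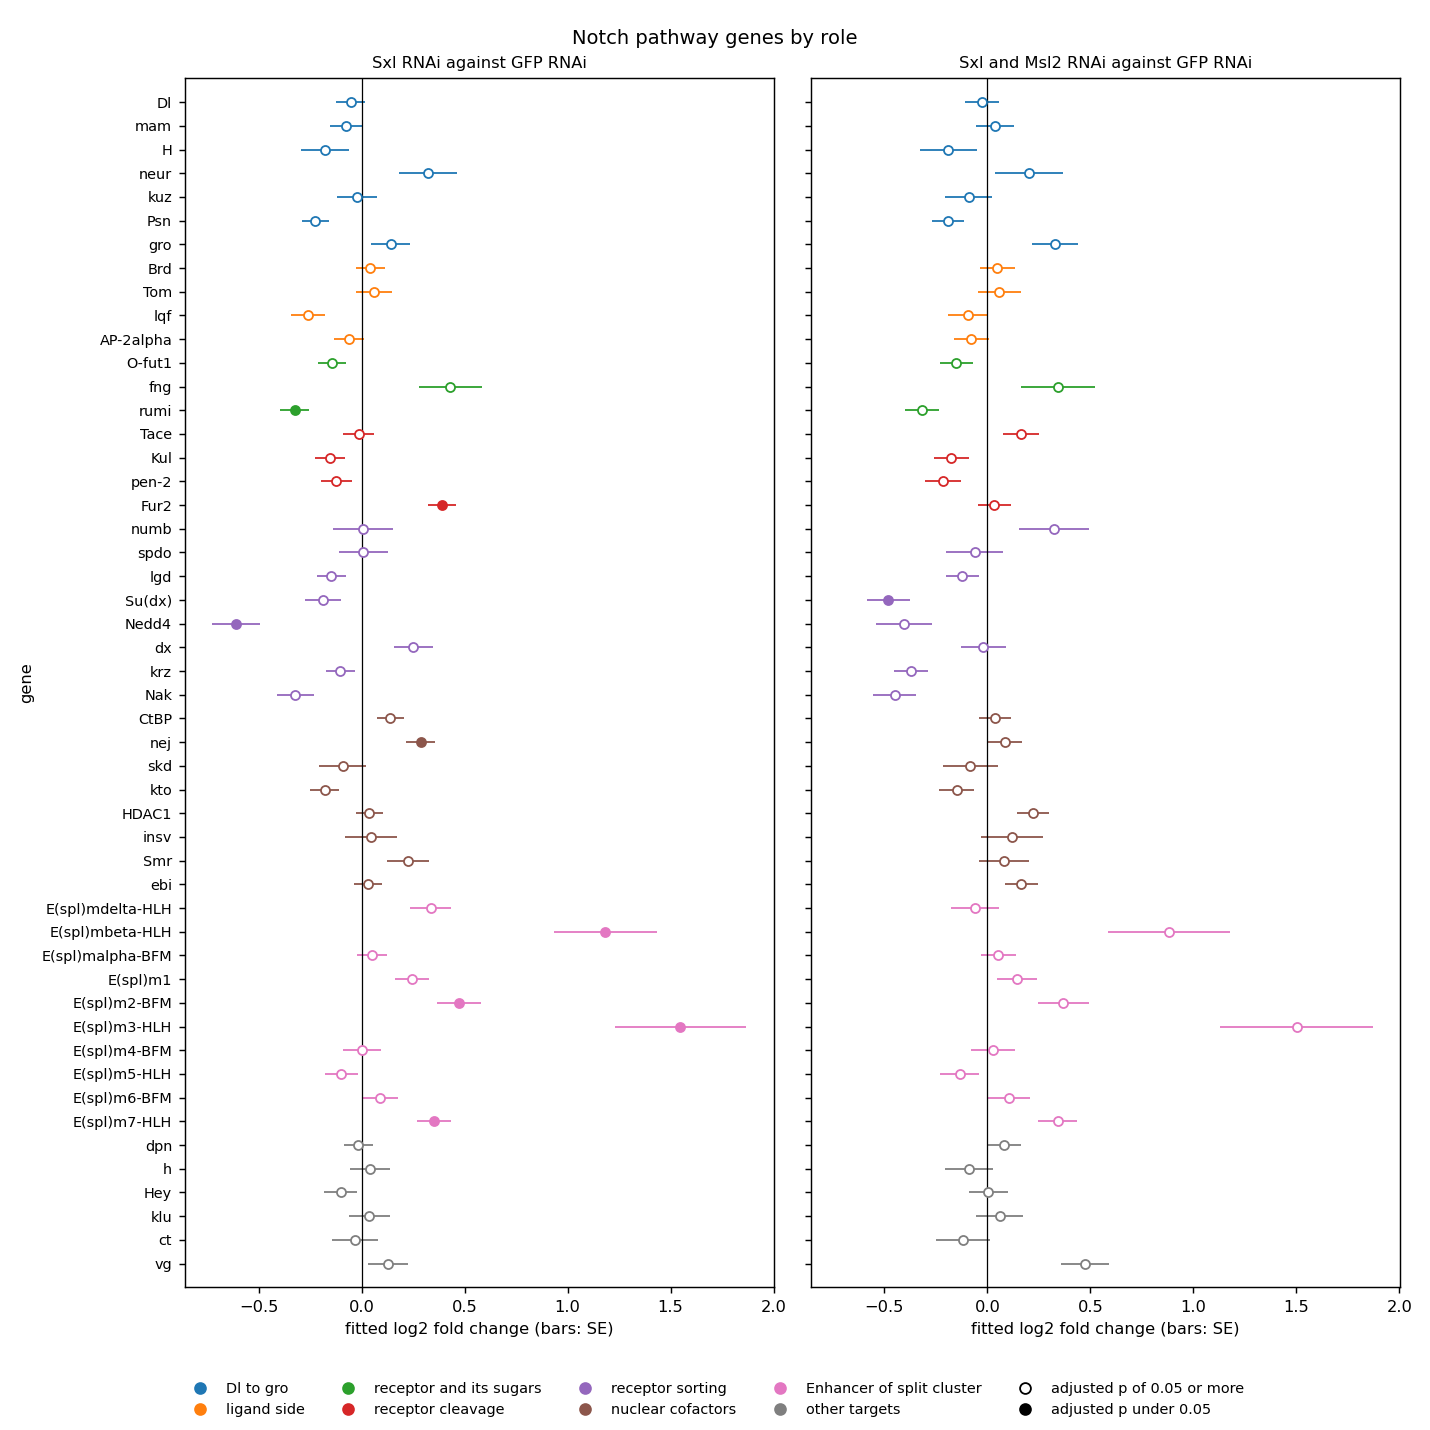
Fitted log2 fold changes with SE of the 7 genes (Dl to gro, top) and of 43 further Notch pathway genes by role, in Sxl RNAi and in Sxl and Msl2 RNAi against GFP RNAi; filled points passed an adjusted p of 0.05. The 7 genes are all open, and the largest filled changes are E(spl)m3-HLH and E(spl)mbeta-HLH in Sxl RNAi.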

How the data were processed

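RNA was extracted with RNeasy columns, and biotin-labelled cRNA was hybridized to 1-color Affymetrix arrays. The deposited values are log2 summaries per probe set, computed by the authors with RMA (version not given in the sources used here). RMA normalizes across arrays, so changes are relative to other genes and a change in total RNA per cell would not be seen. They were used without further scaling. Of 18952 probe sets, 183 array controls were left out. The platform annotation gave 13647 of the rest 1 symbol, 402 several and 4720 none; 1094 genes had more than 1 probe set. Dl is listed there as Delta and was matched by gene ID. Chromosome arms came from the RefSeq table of Release 6 plus ISO1 MT.

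A model with treatment and control set was fitted to all 8 arrays and 18769 probe sets with limma 3.58.1 (lmFit, eBayes) in R 4.3.3, leaving 3 residual and 6.28 prior degrees of freedom, with Benjamini-Hochberg adjustment across all of these probe sets. Median residual SD was 0.0929 above the limit; arrays give no depth, and their number limits the precision. Control sets formed a block because the labels pair each knockdown array with its GFP array. Deviations from the group means agreed within sets (r from 0.367 to 0.877 over 7 pairs), whereas arrays sharing only a title number gave -0.693 to 0.0681 (5 pairs). The deviations of the 2 Sxl and Msl2 RNAi arrays are mirror images, so part of this contrast was fixed in advance and the pairs are not independent. The model was tested on simulated data. All member probe sets are named, and of each wider list up to 3 genes that passed (4 in the Enhancer of split cluster), or else the 1 of highest mean. Genes like neur were the 3 of highest r. Members and lists were chosen with earlier results of these data known. Leaving out each array, no block or another block, 1 probe set or the mean per gene, a filter on low values, autosomal centring, another prior and fitting only the groups compared were tried; for genes of the wider lists they were added after seeing the data.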

Additional observations from a re-analysis of the deposited data

How the results depend on the processing

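Called members numbered 0 to 1 in Sxl RNAi against GFP RNAi when single arrays were left out: 1 without Sxl RNAi replicate 1, GFP RNAi replicate 2 or control set 2 (H), and 1 without GFP RNAi replicate 3 (neur). The settings that called H are the same fit. In this comparison, leaving out either Sxl and Msl2 RNAi array is also the same fit as using only the groups compared. The alternatives therefore hold fewer separate fits than their number. A further fit with a changed count was among the filters and priors. The number of called members was also 1 with only probe sets above the median and with an intensity trend and robust prior (Psn). For control sets this number was 1 with the mean of probe sets per gene, against 2, and 3, with Psn added, with only probe sets above the median, autosomal centring or the robust prior. The other treatment comparisons stayed at 0 under every alternative run. Without the replicate block, or with the block by title number, 0 members were called in each treatment comparison; called probe sets fell to 27 and 0 in Sxl RNAi, against 1290 with control sets, to 1 and 1 against 479 in Sxl and Msl2 RNAi, and to 1 and 1 against 105 between knockdowns. Called probe sets in Sxl RNAi were as few as 452 without Sxl RNAi replicate 2, and in Sxl and Msl2 RNAi as few as 20 without its replicate 1. Of the wider-list calls, all 9 were also lost without the block and with the block by title number, and nej with only the groups compared (adjusted p = 0.0673). Centring on autosomal probe sets gave 951 higher and 363 lower in Sxl RNAi, against 762 and 528.

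Signs turned only for member changes that were called on neither side. On autosomal centring, Sxl RNAi against GFP RNAi turned to 0.013 for Dl 1634659_at and 0.014 for kuz, and Sxl RNAi against Sxl and Msl2 RNAi to 0.018 for Dl 1634398_a_at and 0.013 for Psn. With the mean of probe sets per gene, mam was 0.12 in Sxl RNAi, and between knockdowns Dl was 0.021, mam 0.036 and H -0.026. Without the block, mam 1624960_at was -0.0029 in Sxl and Msl2 RNAi, and between knockdowns H 1639839_s_at was 0.0047 and neur -0.13. With the block by title number, mam 1624960_at was -0.040 in Sxl and Msl2 RNAi, and between knockdowns Dl 1634398_a_at was 0.0068, neur -0.42 and Psn 0.042. Without control set 2, or with only the groups compared, mam 1624960_at was -0.00080 in Sxl and Msl2 RNAi and H 1638568_s_at was -0.094 between knockdowns.

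Leaving out single arrays, the change in Sxl RNAi ran between -0.21 and 0.089 for H 1639839_s_at and between -0.10 and 0.10 for kuz. In Sxl and Msl2 RNAi it ran between -0.089 and 0.023 for Dl 1634398_a_at, -0.00080 and 0.12 for mam 1624960_at, -0.070 and 0.31 for mam 1632457_s_at, -0.38 and 0.36 for H 1639839_s_at, -0.11 and 0.51 for neur, and -0.28 and 0.098 for kuz. Between knockdowns it ran between -0.076 and 0.021 for Dl 1634398_a_at, -0.094 and 0.14 for H 1638568_s_at, -0.43 and 0.31 for H 1639839_s_at, -0.19 and 0.43 for neur, and -0.12 and 0.26 for kuz. The cause of these turns was not tested. Where a treatment kept 1 array, that array was assumed to vary like the others.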
